A study of Mus musculus with 54 samples.

Results

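Kidney ageing in male mice was examined by RNA-seq of poly(A) RNA from whole kidney. The comparison set 3 old males (130 weeks, control diet) against 3 young males (50 weeks), all C57BL/6J, an inbred laboratory strain without an engineered allele. These 6 libraries were chosen by their sex, tissue and age labels out of the 54 samples of a study that also sequenced liver and quadriceps, females, and mice of 130 weeks fed corylin, a plant flavonoid. The labels number 1 mouse per library and give no litter or collection day. The p-values of the main fit rest on the spread among mice within all 6 kidney groups of the study, 18 libraries, females and corylin-fed mice included. Those of the fit of male libraries rest on the 6 males alone. All 17174 kidney genes that passed a filter on low counts were tested. Old and young females of the same ages, 3 libraries each, served to ask whether the age effect differed between the sexes.

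The kidney filters blood in glomeruli and reclaims nearly all of the filtrate in tubules, most of it in the proximal tubule, an epithelium that burns fatty acids, breaks down amino acids and carries many organic ion transporters. In male mice part of this epithelium's gene expression depends on androgens. Ageing kidneys of mice are known to gather leukocytes, and injured tubule cells switch on a set of repair genes that includes secreted acute phase and complement proteins.

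Old males had 18.94, 15.49 and 18.29 counted reads in multiples of 1e+06, and young males 21.25, 23.19 and 19.57. The library names carry a letter whose meaning is not given in the sources used here, and old male 3 alone among the 6 carried R. The kidney label fitted a defining marker: Umod, the uromodulin of the thick ascending limb, was at 5252, 5345 and 4879 CPM (counts per 1e+06 counts) in old males, against 4650, 4912 and 4847 CPM in young males. Xist, the RNA of the inactive X chromosome, was at 0.0561 to 0.385 CPM in old males and at 0.223 to 0.266 CPM in young males. The Y-linked Kdm5d was at 17.8 to 24.4 CPM in old males and 19.5 to 24.8 CPM in young males, and the Y-linked Ddx3y at 48.1 to 69.1 CPM and 28.4 to 74.2 CPM. In a principal component analysis of the 6 libraries the first component, with 39.8% of the variance, had the 3 old males on one side and the 3 young males on the other, and the second, with 22.6%, spread the young males from one another.

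In old males 14 genes rose and 5 fell at an adjusted p under 0.05 (edgeR's quasi-likelihood test in 1 fit over the 6 kidney groups of the study, with Benjamini-Hochberg adjustment). That is 0.111% of the genes tested, 0.0815% upward and 0.0291% downward. The genes that rose encode complement and acute phase proteins (C3, Fga, Fgg, Serpina3n), a bone morphogenetic protein antagonist (Grem1) and a matrix protease (Mmp7). Others encode myeloid and plasma cell products (Lyz1, Cd300a, Ccl9, Igkv5-39), epithelial transport or enzyme proteins (Pigr, Abcc3, Aldh1a1) and an adhesion receptor (Adgrg2). Those that fell were Aadat, Acsm1, Mep1b, Selenbp2 and ENSMUSG00000079834, an identifier that the files give without a symbol. For each of the 19 the old and young libraries did not overlap, a property that 9.96% of all genes had with old males above and 10.1% with old males below. At an unadjusted p under 0.05 there were 1029 genes with higher levels (5.99%) and 850 with lower levels (4.95%).

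The number of genes called differed between fits and with single libraries. In a fit of the 6 male libraries alone 232 of 15927 genes passed (1.46%), 177 higher (1.11%) and 55 lower (0.345%), among them 18 of the 19 (Selenbp2 had an adjusted p of 0.0609). The authors' deposited table has 222 of the 17174 genes under an adjusted p of 0.05 (1.29%), 149 higher (0.868%) and 73 lower (0.425%), and holds all 19. Leaving out old male 1 gave 30 calls in the fit of 6 groups, and leaving out old male 2, old male 3, young male 2 or young male 3 left 1 call each, and leaving out young male 1 left 2. C3 passed in each of these 6 fits. Without old male 3 the remaining 5 males all carry the letter B, and C3 had a log2 fold change of 2.33 (adjusted p = 0.00611, edgeR), with 2.38 in all 6. With the letter as a term over all kidney groups 2 genes passed, C3 at 2.32 (adjusted p = 0.00221, edgeR) and Aadat at -0.86 (adjusted p = 0.0289, edgeR). For the 19 genes the log2 fold change kept its direction in every such fit.

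**Figure D1:**
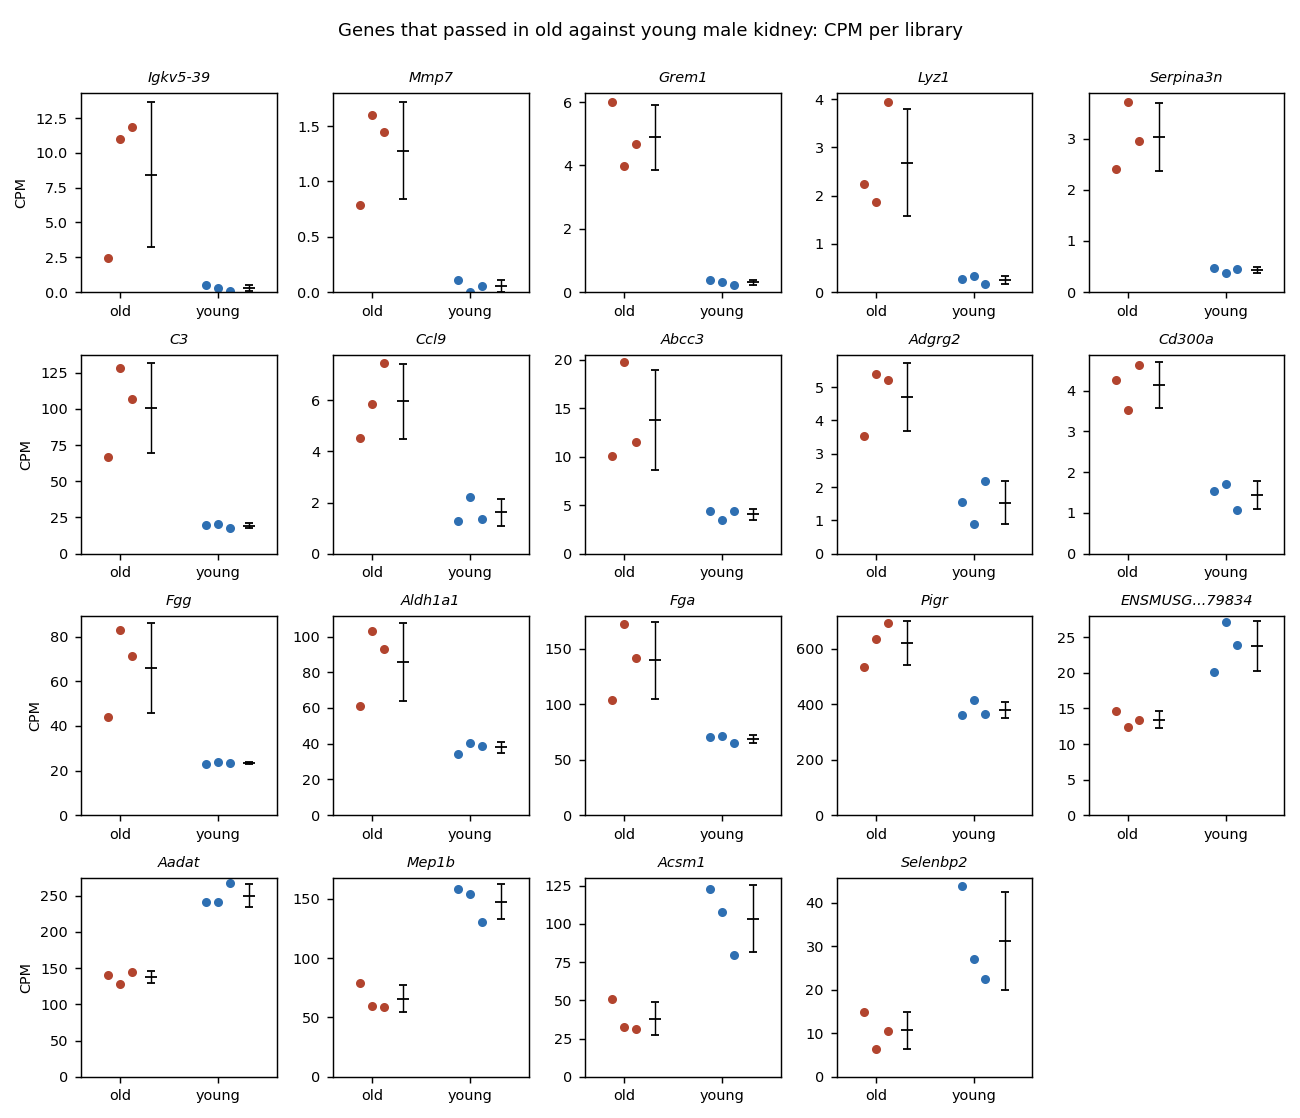
CPM of the 19 genes that passed, old males (red, left) and young males (blue, right), 1 point per library, with the mean and SD beside them as a black bar. Panels run from the highest to the lowest log2 fold change, and in each panel the 3 old libraries lie apart from the 3 young ones.

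C3, the central component of complement, had the smallest p of all genes. It was at 66.8, 128 and 107 CPM in old males, against 19.8, 20.8 and 17.5 CPM in young males. The lowest old library was 3.22 times the highest young one, and the log2 fold change was 2.38 ± 0.25 (SE, adjusted p = 0.000768, edgeR). In TPM, a unit that allows for gene length, C3 averaged 49.7 ± 17.6 in old males and 8.55 ± 0.83 in young males (SD, n = 3 each). The other complement genes did not pass in this fit: 10 of the 19 tested on the list, C3 included, lay higher in every old library and 1 lower, with a median log2 fold change of 0.50, where the median over all genes was -0.01. Over all genes 9.96% lay higher and 10.1% lower in every old library. C4b, a component of the classical pathway, was at 70.9, 34.1 and 66.5 CPM in old males, against 18.9, 18.2 and 15 CPM in young males. Its log2 fold change was 1.72 ± 0.42 (adjusted p = 0.118, edgeR). C1qa, a subunit of the C1q recognition complex made by macrophages, was at 42.7, 40.1 and 61.0 CPM in old males and at 26.8, 22.4 and 16.2 CPM in young males. In the fit of male libraries, where 1.46% of all genes passed, 8 of 18 tested complement genes passed, C4b (adjusted p = 0.0132, edgeR) and C1qa (0.0265) among them. C1qa, C1qb and C1qc passed there and are also on the macrophage list.

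Acute phase proteins, which hepatocytes secrete in inflammation and which injured epithelia can also make, were the list with the most calls. Of 12 tested, 3 rose, where 0.0815% of all genes rose, and 12 had a positive log2 fold change, with a median of 1.27. In every old library 9 of the 12 lay higher and 0 lower, with 9.96% and 10.1% among all genes. Fga, the fibrinogen alpha chain, was at 104, 173 and 142 CPM in old males, against 70.8, 71.3 and 64.7 CPM in young males. Its log2 fold change was 1.02 ± 0.18 (adjusted p = 0.0422, edgeR), with old male 1 the lowest of the old libraries and the young libraries close together. Fgg, the gamma chain, was at 43.8, 83.0 and 71.2 CPM in old males, against 22.7, 23.6 and 23.5 CPM in young males, and rose by 1.5 ± 0.27 on the log2 scale (adjusted p = 0.0422, edgeR). Fgb, the beta chain, was scarcer at 5.33, 8.28 and 7.53 CPM in old males and 3.35, 4.04 and 1.84 CPM in young males, and its log2 fold change of 1.18 ± 0.29 did not pass (adjusted p = 0.112, edgeR). All 3 fibrinogen genes thus lay higher in every old library. Per length, Fga averaged 118 ± 35 TPM, Fgg 80.1 ± 27.8 TPM and Fgb 4.69 ± 1.22 TPM in old males, against 52.0 ± 3.3, 25.4 ± 2.1 and 1.83 ± 0.68 TPM in young males (SD, n = 3 each). In GRCm38 the 3 genes share a cluster of 42140 bases on chromosome 3, with Fgg and Fga on the plus strand 11026 bases apart and Fgb on the minus strand 6513 bases beyond Fga. Serpina3n, a secreted protease inhibitor, was at 2.41, 3.72 and 2.95 CPM in old males and at 0.478, 0.372 and 0.446 CPM in young males, with a log2 fold change of 2.79 ± 0.48 (adjusted p = 0.0422, edgeR). Among 9 tested hepatocyte markers 6 had a positive log2 fold change, with a median of 0.25. In every old library 1 of them lay higher and 2 lower, with 9.96% and 10.1% among all genes. Trf, the transferrin that liver secretes, was at 34.8, 45.1 and 34.7 CPM in old males, against 20.5, 20.8 and 22.2 CPM in young males (adjusted p = 0.161, edgeR, and 0.0158 among male libraries). Serpina1a, a protease inhibitor of a multigene family, was at 44.9, 81.0 and 107 CPM in old males and 42.6, 36.5 and 47.8 CPM in young males, with overlap. Ttr, the transthyretin that liver secretes, was at 12.3, 12.8 and 12.9 CPM in old males, against 28.1, 27.1 and 20.8 CPM in young males (adjusted p = 0.287, edgeR, and 0.0128 among male libraries).

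The bases before the start sites of C3, Fga, Fgg and Mmp7 are shown because complement, acute phase and matrix protease genes are known targets of C/EBP, STAT3 and AP-1 factors. They are 5' to 3' from RefSeq (GRCm38.p6), up to 250 bases and cut where the GENCODE M21 gene begins. Capitals mark matches to TTNNGCAA (C/EBP) or TTCNNNGAA (STAT) or TGANTCA (AP-1) on either strand.
C3, chr17:57228137-57228386, minus strand: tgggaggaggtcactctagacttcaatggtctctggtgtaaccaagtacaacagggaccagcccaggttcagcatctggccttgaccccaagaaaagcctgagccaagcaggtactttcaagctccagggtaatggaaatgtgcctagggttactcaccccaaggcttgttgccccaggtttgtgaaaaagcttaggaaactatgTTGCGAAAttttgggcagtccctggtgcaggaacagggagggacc
Fga, chr3:83025903-83026075, plus strand: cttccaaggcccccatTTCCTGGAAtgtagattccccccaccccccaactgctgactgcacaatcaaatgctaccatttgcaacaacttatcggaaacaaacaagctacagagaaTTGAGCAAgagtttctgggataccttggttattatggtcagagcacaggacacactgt
Fgg, chr3:83007474-83007723, plus strand: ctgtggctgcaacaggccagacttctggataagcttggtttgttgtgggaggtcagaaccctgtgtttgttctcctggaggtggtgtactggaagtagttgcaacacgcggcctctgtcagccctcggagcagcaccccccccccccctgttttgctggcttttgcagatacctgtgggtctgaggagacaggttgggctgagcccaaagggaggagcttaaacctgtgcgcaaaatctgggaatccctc
Mmp7, chr9:7691840-7692089, plus strand: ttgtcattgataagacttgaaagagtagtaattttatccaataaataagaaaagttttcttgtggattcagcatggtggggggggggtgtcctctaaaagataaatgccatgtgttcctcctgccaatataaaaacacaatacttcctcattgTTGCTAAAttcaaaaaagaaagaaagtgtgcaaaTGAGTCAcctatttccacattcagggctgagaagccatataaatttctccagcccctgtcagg
C3 held a C/EBP match that begins 45 bases before its RefSeq start, Fga a STAT match at 234 and a C/EBP match at 135 bases, and Mmp7 a C/EBP match at 97 and an AP-1 match at 63 bases, while Fgg held none of these letters. Of the 19 genes 15 were searched over the full 250 bases, and C/EBP letters stood before 6 of them (Aldh1a1, C3, Cd300a, Fga, Lyz1 and Mmp7), AP-1 letters before 3 and STAT letters before 1. Among all 32851 RefSeq promoters the shares were 9.56% for C/EBP, 6.75% for AP-1 and 7.02% for STAT. The counts are per gene over every promoter listed for it, without Mep1b, and the shares are per promoter. They are therefore not in the same unit, and no test compared them. A match of letters does not show that a factor binds there.

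After Igkv5-39, Mmp7 and Grem1 had the steepest rises of the 14 genes. Grem1, which binds and blocks bone morphogenetic proteins, was at 6.00, 3.98 and 4.69 CPM in old males, against 0.372, 0.325 and 0.223 CPM in young males. The log2 fold change was 3.96 ± 0.68 (adjusted p = 0.0422, edgeR), and the lowest old library was 10.7 times the highest young one. Grem1 was among 5 called genes that lay below 1 CPM in every young library, so this ratio rests on low counts. It passed in 0 of 6 fits of 6 groups that left out 1 library, with log2 fold changes of 3.78 to 4.11. Mmp7, a metalloprotease that injured epithelium secretes, was at 0.785, 1.61 and 1.45 CPM in old males, against 0.106, 0 and 0.0558 CPM in young males, which is 3 counts over the 3 young libraries together. The ratio of summed counts, scaled by library size, was 24.5 (95% exact interval 8.02 to 122, counting error only). Its log2 fold change was 4.43 ± 0.77 (adjusted p = 0.0422, edgeR). Both genes also rose in old females, Grem1 by 5.03 ± 0.63 (adjusted p = 0.000196, edgeR) and Mmp7 by 4.84 ± 0.57 (adjusted p = 0.000144, edgeR). Of 33 tested collagens and other structural matrix genes none passed in males, and 3 lay higher and 7 lower in every old library. Over all genes these shares were 9.96% and 10.1%. The median log2 fold change of the 33 was -0.02, or 0.07 with library totals as the only scaling. In females 18 of the 33 rose (7.69% of all genes rose there). The difference between the sexes was called for one of them, Eln (elastin), which was at 7.63 ± 1.22 CPM in old males and 7.96 ± 1.09 CPM in young males (SD, n = 3 each). TGF-beta and BMP genes had a median log2 fold change of 0.22 over 31 tested, Grem1 included, and 10 lay higher and 4 lower in every old library. Inhbb, the inhibin beta B subunit, was at 15, 17.5 and 16.5 CPM in old males, against 8.39, 6.97 and 8.37 CPM in young males (log2 fold change 1.05 ± 0.33, adjusted p = 0.228, edgeR).

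Genes of tubular injury and repair were higher in old males without passing in the fit of 6 groups. Of 28 tested, 24 had a positive log2 fold change, 14 lay higher in every old library, none lay lower in all, and the median was 0.66. Over all genes 9.96% lay higher and 10.1% lower in every old library. Lcn2, the injury marker NGAL, was at 20.4, 41.4 and 24.1 CPM in old males, against 4.83, 3.02 and 4.24 CPM in young males. The lowest old library was 4.21 times the highest young one, yet the log2 fold change of 2.83 ± 0.74 did not pass (adjusted p = 0.145, edgeR). In the fit of male libraries Lcn2 passed with 2.84 ± 0.28 (adjusted p = 0.00425, edgeR). Sox9, a transcription factor of regenerating tubule, was at 4.43, 4.05 and 3.07 CPM in old males and at 0.903, 0.789 and 1.23 CPM in young males (adjusted p = 0.0987, edgeR, and 0.0115 among male libraries). Krt20, a keratin of injured tubule, was at 1.18, 3.85 and 1.16 CPM in old males and at 0.478, 0.279 and 0.446 CPM in young males. Cdkn1a, the p21 inhibitor of the cell cycle, was at 47.0, 76.4 and 81.9 CPM in old males, against 24.0, 28.7 and 40.2 CPM in young males (log2 fold change 1.14 ± 0.24, adjusted p = 0.0754, edgeR). The senescence and p53 list, Cdkn1a included, gave a median of 0.14 over 23 tested. In every old library 4 of them lay higher and 3 lower, with 9.96% and 10.1% among all genes. Among male libraries 7 of 27 tested injury genes passed, all higher, where 1.11% of all genes passed as higher.

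**Figure D2:**
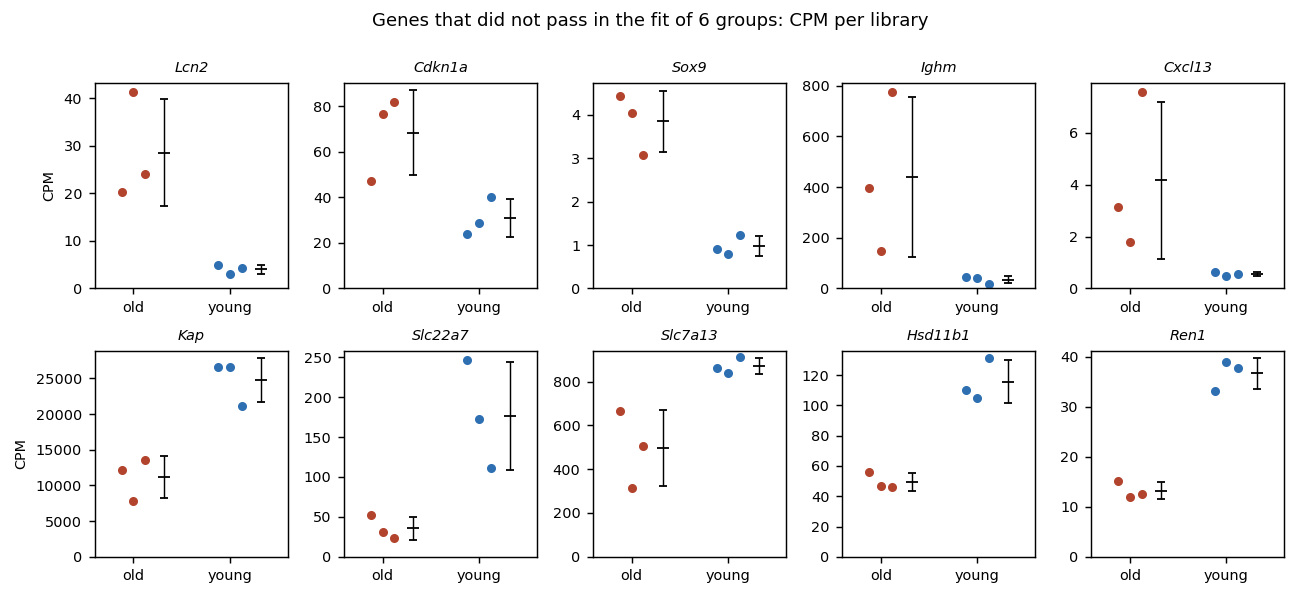
CPM of 10 genes that did not pass in the fit of 6 groups, old males (red, left) and young males (blue, right), 1 point per library, with the mean and SD as a black bar. Lcn2, Cdkn1a, Sox9, Ighm and Cxcl13 lay higher and Kap, Slc22a7, Slc7a13, Hsd11b1 and Ren1 lower in every old library.

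Leukocyte markers lay higher in old males, although none on the macrophage, lymphocyte and neutrophil lists passed in the fit of 6 groups. More cells of a type and more RNA per cell cannot be told apart in whole tissue. All 22 macrophage markers had a positive log2 fold change, 18 lay higher in every old library (9.96% of all genes did), and the median was 1.10. None passed in the fit of 6 groups, and 12 of 22 passed among the male libraries, where 1.46% of all genes passed. Ctss, the cathepsin S of macrophages and dendritic cells, was at 28.5, 28.4 and 40 CPM in old males, against 12.1, 14.3 and 10.9 CPM in young males (log2 fold change 1.37 ± 0.30, adjusted p = 0.095, edgeR). Lyz1, a lysozyme, rose to 2.24, 1.86 and 3.94 CPM in old males, against 0.266, 0.325 and 0.167 CPM in young males, with a log2 fold change of 3.35 ± 0.58 (adjusted p = 0.0422, edgeR). Its near-identical neighbour Lyz2, the myeloid lysozyme, was far more abundant per length at 153, 178 and 223 TPM in old males and 72.5, 71.6 and 44.8 TPM in young males, so reads could have been split between them. Cd300a, an inhibitory receptor of myeloid cells, rose to 4.26, 3.53 and 4.63 CPM in old males, against 1.54, 1.72 and 1.06 CPM in young males (log2 fold change 1.51 ± 0.27, adjusted p = 0.0422, edgeR). Ccl9, a chemokine, rose to 4.54, 5.84 and 7.47 CPM in old males, against 1.28, 2.23 and 1.34 CPM in young males (log2 fold change 1.87 ± 0.33, adjusted p = 0.0422, edgeR). It was the only one of 24 chemokine genes to pass, where 0.0815% of all genes passed as higher. Of the 24, 12 lay higher in every old library, with 9.96% among all genes. Neutrophil genes were low: the summed level of all 13 on the list was 8.13, 12.8 and 9.44 CPM in old males, against 4.36, 3.72 and 3.57 CPM in young males. Only 5 of the 13 passed the filter on low counts and were tested.

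Lymphocyte genes differed widely among the old males themselves. Relative to the young mean, the mean log2 CPM of T and NK cell markers was 0.98, 0.46 and 1.75 in old males 1, 2 and 3. For B and plasma cell markers it was 1.11, 0.25 and 1.91, so old male 2 lay below old males 1 and 3 for both and, for B and plasma cell markers, within the range of the young (0.40, 0.12 and -0.52). Igkv5-39, an immunoglobulin kappa variable segment, was at 2.47, 11 and 11.9 CPM in old males, against 0.531, 0.325 and 0.112 CPM in young males, and rose by 4.66 ± 0.73 on the log2 scale (adjusted p = 0.0422, edgeR). The heavy chain Ighm was at 395, 148 and 775 CPM in old males and at 43.9, 41.6 and 18.5 CPM in young males, and with a log2 fold change of 3.66 ± 0.86 it did not pass (adjusted p = 0.108, edgeR). Among 21 tested B and plasma cell markers none passed, 20 were positive and 5 lay higher in every old library, with 9.96% among all genes. Cxcl13, the chemokine that draws B cells, was at 3.14, 1.80 and 7.58 CPM in old males, against 0.638, 0.464 and 0.558 CPM in young males. Pigr, which carries polymeric immunoglobulin across epithelium, rose to 534, 635 and 693 CPM in old males, against 361, 414 and 365 CPM in young males (log2 fold change 0.71 ± 0.13, adjusted p = 0.0422, edgeR).

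Antigen presentation and interferon genes stood highest in old male 3. The mean log2 CPM of 18 interferon-gamma GTPases, relative to the young mean, was -0.06, 0.30 and 1.33 in old males 1, 2 and 3, and that of 16 MHC class I genes was 0.21, 0.21 and 0.81. Type I interferon-stimulated genes followed with 0.10, 0.63 and 0.98. No gene of these lists passed, and 29 of 31 type I genes and 14 of 16 class I genes had positive log2 fold changes with medians of 0.58 and 0.48. In every old library 10 of the 31, 9 of the 16 and 4 of the 18 GTPases lay higher and 0 lower. Over all genes these shares were 9.96% and 10.1%. All 11 MHC class II genes were positive with a median of 0.79, none passed, and 5 lay higher in every old library. Their mean log2 CPM, relative to the young mean, was 0.58, 0.34 and 1.17 in old males 1, 2 and 3. B2m, the light chain of MHC class I, was at 247, 301 and 467 CPM in old males, against 196, 206 and 167 CPM in young males. Iigp1, an interferon-inducible GTPase, was at 11.8, 17.4 and 52.5 CPM in old males and at 9.62, 14.6 and 13.9 CPM in young males, with overlap. Old male 3 is also the library with the letter R, and the part of that letter in these levels was not tested.

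**Figure D3:**
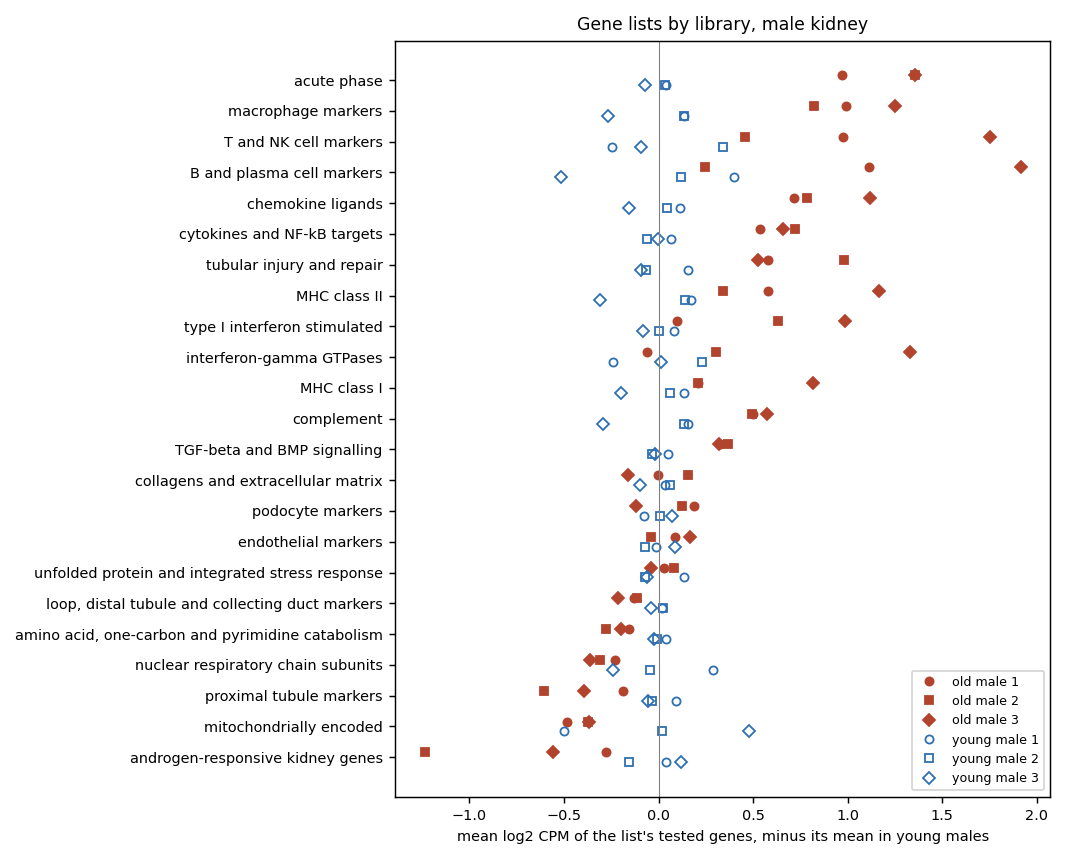
Mean log2 CPM of the tested genes of 23 lists in each library, minus the list's mean in young males, with old males as filled red and young males as open blue symbols. Old males lie right of every young male for acute phase, macrophage, chemokine and injury genes, spread widely for lymphocyte and interferon genes, and lie left for androgen-responsive and proximal tubule genes.

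Enzymes and a brush border protease of the proximal tubule were among the genes that fell. Aadat, a mitochondrial aminotransferase that acts on kynurenine and aminoadipate, was at 141, 128 and 144 CPM in old males, against 241, 241 and 268 CPM in young males. Its log2 fold change was -0.86 ± 0.12 (adjusted p = 0.00967, edgeR), and both groups were tight. Acsm1, a medium-chain acyl-CoA synthetase, fell to 50.6, 32.4 and 31.1 CPM in old males, against 123, 108 and 79.8 CPM in young males (log2 fold change -1.44 ± 0.25, adjusted p = 0.0422, edgeR). Mep1b, the meprin beta protease of the brush border, fell to 79.3, 59.8 and 59.0 CPM in old males, against 158, 154 and 131 CPM in young males (log2 fold change -1.16 ± 0.21, adjusted p = 0.0422, edgeR). Selenbp2, a selenium-binding protein gene, fell to 15, 6.49 and 10.4 CPM in old males, against 43.8, 27.1 and 22.4 CPM in young males (log2 fold change -1.55 ± 0.28, adjusted p = 0.0422, edgeR). Its paralog Selenbp1 was at 523, 479 and 520 CPM in old males and 786, 617 and 601 CPM in young males, and reads could have been split between the copies.

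Across 42 proximal tubule markers 5 had a positive log2 fold change, 17 lay lower in every old library and none higher, and the median was -0.30. Over all genes 10.1% lay lower and 9.96% higher in every old library, which is also the background for the lists that follow here. None of the 42 passed in the fit of 6 groups, and 4 fell among the male libraries, where 0.345% of all genes fell. Slc22a7, an organic anion transporter, was at 52.1, 30.9 and 23.4 CPM in old males, against 247, 172 and 111 CPM in young males. The groups did not overlap, and the log2 fold change was -2.31 ± 0.55 (adjusted p = 0.108, edgeR, and 0.0373 among male libraries). The phosphate transporter Slc34a1 overlapped between groups at 5144, 2833 and 3906 CPM in old males and 5991, 4667 and 4788 CPM in young males. Megalin (Lrp2), the endocytic receptor, was at 1430, 1079 and 1228 CPM in old males and 1593, 1521 and 1461 CPM in young males. Amino acid, one-carbon and pyrimidine catabolism had a median of -0.29 over 46 genes, with 24 lower and 2 higher in every old library. The list had 1 call, Aadat, where 0.0291% of all genes were called lower. Fatty acid oxidation and ketogenesis had a median of -0.09 over 28 genes, with 6 lower and 3 higher in every old library. Bdh1, the beta-hydroxybutyrate dehydrogenase, was at 120, 85.6 and 116 CPM in old males, against 182, 185 and 167 CPM in young males (adjusted p = 0.0957, edgeR). Pdk4, the kinase that restrains pyruvate dehydrogenase, was at 448, 527 and 514 CPM in old males, against 233, 359 and 316 CPM in young males (adjusted p = 0.207, edgeR).

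Androgen-responsive kidney genes were lower in old males by a median of -0.59 over 14 genes, 1 of them positive and 6 lower in every old library, with none called. Over all genes 10.1% lay lower in every old library. Kap, the kidney androgen-regulated protein and one of the most abundant transcripts of the male proximal tubule, was at 12129, 7887 and 13601 CPM in old males, against 26543, 26567 and 21173 CPM in young males. Its log2 fold change was -1.14 ± 0.28 (adjusted p = 0.111, edgeR, and 0.0265 among male libraries). Slc7a13, a cystine and aspartate transporter of the late proximal tubule, was at 664, 315 and 508 CPM in old males, against 861, 840 and 910 CPM in young males. Old male 2 was lowest for both, and its mean over the list was -1.23 relative to the young mean, with -0.28 in old male 1 and -0.56 in old male 3. Hsd11b1, which regenerates active glucocorticoid, was at 56.2, 46.6 and 45.8 CPM in old males, against 110, 105 and 132 CPM in young males (log2 fold change -1.22 ± 0.23, adjusted p = 0.058, edgeR).

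Respiratory chain subunits encoded in the nucleus had a median of -0.32 over 40 tested with none positive, and 18 lay lower in every old library (10.1% of all genes did). The young males differed among themselves on this list by more than that median: relative to their mean they were at 0.29, -0.05 and -0.24, and the old males at -0.23, -0.31 and -0.36. Young male 3 lay level with old male 1, so the groups overlapped on the list's mean, and none of the 40 passed in either fit. The 13 mitochondrially encoded genes showed a spread of -0.50, 0.02 and 0.48 among the young males and stood at -0.48, -0.37 and -0.37 in the old.

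Ren1, the renin of the juxtaglomerular cells that opens the angiotensin cascade, was at 15.1, 12 and 12.6 CPM in old males, against 33.2, 39.0 and 37.8 CPM in young males. Both groups were tight and far apart, and the log2 fold change was -1.47 ± 0.32 (adjusted p = 0.0925, edgeR). Among the male libraries it passed with -1.46 ± 0.13 (adjusted p = 0.00177, edgeR). The renin, angiotensin and mineralocorticoid list, Ren1 included, gave a median of -0.25 over 12 tested. Slc26a4, the pendrin of intercalated cells, was at 31.1, 37.0 and 30.6 CPM in old males, against 62.2, 61.5 and 59.9 CPM in young males (adjusted p = 0.273, edgeR, and 0.00963 among male libraries). Distal nephron and collecting duct markers as a whole had a median of -0.17 over 33 tested, and 11 lay lower and 3 higher in every old library. Over all genes these shares were 10.1% and 9.96%. Podocyte and endothelial markers had medians of 0.13 and 0.08 over 18 and 16 tested, with none called.

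Aldh1a1, Abcc3 and Adgrg2 complete the genes that rose. Aldh1a1, a retinaldehyde dehydrogenase, rose to 60.9, 103 and 93.0 CPM in old males, against 34.5, 40.5 and 38.8 CPM in young males (log2 fold change 1.18 ± 0.22, adjusted p = 0.0422, edgeR). Abcc3, an efflux pump for conjugated organic anions, rose to 10.1, 19.7 and 11.5 CPM in old males, against 4.36, 3.44 and 4.41 CPM in young males (log2 fold change 1.76 ± 0.32, adjusted p = 0.0422, edgeR). Adgrg2, an adhesion receptor, rose to 3.53, 5.39 and 5.21 CPM in old males, against 1.54, 0.882 and 2.18 CPM in young males (log2 fold change 1.63 ± 0.28, adjusted p = 0.0422, edgeR). ENSMUSG00000079834 fell to 14.7, 12.3 and 13.3 CPM in old males, against 20.2, 27.2 and 23.9 CPM in young males (log2 fold change -0.82 ± 0.15, adjusted p = 0.0422, edgeR). The 10 genes next in rank, with adjusted p-values of 0.0554 to 0.0723, were Pld4, Klf6, Gcnt4, Arid5a and Cd84, with positive log2 fold changes, and Hsd11b1, 3110045C21Rik, Pde6a, Slc22a13 and Slc22a4, with negative ones. Pld4, a lysosomal nuclease of myeloid and dendritic cells, was at 17.2, 17.3 and 21.2 CPM in old males, against 8.39, 8.08 and 6.58 CPM in young males.

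Markers of tissues that could be dissected with the kidney were also summed, over every gene of each list found in the data, tested or not. The summed level of red cell markers was 302, 353 and 390 CPM in old males and 800, 626 and 323 CPM in young males. Adipocyte markers summed to 522, 552 and 542 CPM in old males, against 781, 618 and 615 CPM in young males, so the sum lay lower in every old library. Of the 13 adipocyte markers in that sum 9 were tested, and 2 of the 9 lay lower and none higher in every old library. Over all genes 10.1% lay lower and 9.96% higher. Car3, a carbonic anhydrase, was among the 2 and fell in the fit of male libraries with a log2 fold change of -1.42 ± 0.26 (adjusted p = 0.0269, edgeR). Adipoq, the adipocyte hormone adiponectin, was at 0, 0 and 0.0579 CPM in old males and at 0.372, 0.65 and 0 CPM in young males. Urothelium markers summed to 15.1, 23.6 and 13.9 CPM in old males and to 39.1, 6.78 and 16.7 CPM in young males. Their part in the results was not tested.

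In females the same contrast called 1863 genes (10.8%), 1320 higher (7.69%) and 543 lower (3.16%). Of the 19 genes called in males, 10 were called in females in the same direction, which is 52.6% of the male calls and 0.537% of the female calls, and 16 had the same sign. C3 rose by 2.62 ± 0.25 in old females (adjusted p = 3.96e-05, edgeR). Acsm1 and Selenbp2, called in males, had log2 fold changes of 0.19 ± 0.24 and -0.03 ± 0.29 in females, and Aldh1a1 of 0.03 ± 0.21. A test of the difference between the age effects called 16 genes (0.0932%), of which Aadat and Igkv5-39 were also called in males. Aadat was at 1252, 1033 and 1156 CPM in old females, against 1084, 919 and 966 CPM in young females, a log2 fold change of 0.21 ± 0.11 that exceeded the male one by 1.07 ± 0.16 (adjusted p = 0.0217, edgeR). For Igkv5-39 the female log2 fold change of -1.28 ± 0.70 lay 5.95 ± 1.01 below the male one (adjusted p = 0.0403, edgeR). The difference was not called for the rest of the 19, so the absence of a female call among them does not show that the sexes differ.

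**Figure D4:**
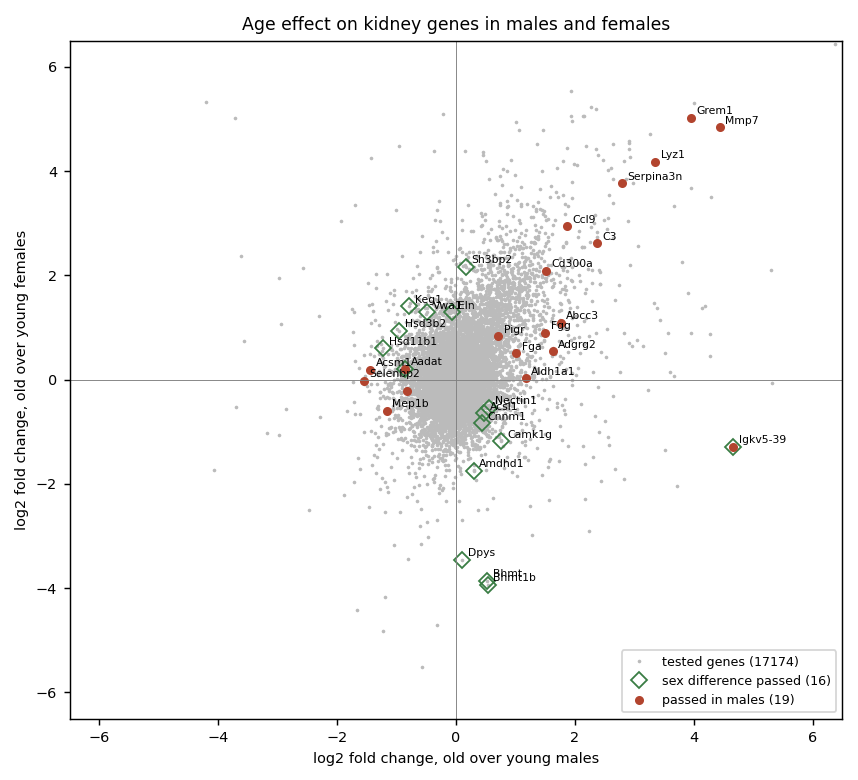
Log2 fold change of old over young males (x axis) against old over young females (y axis) for 17174 genes, with the 19 genes that passed in males as red points and the 16 genes whose age effect differed between the sexes as green diamonds. 3 genes lie beyond the axis limits of 6.5, and C3, Grem1, Mmp7, Lyz1 and Serpina3n lie in the upper right.

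Males of 130 weeks on the corylin diet, with 3 libraries, entered the fit but no comparison, and 4 genes chosen after their values were seen give their level. C3 was at 89.3, 54.0 and 87.0 CPM in them, and Mmp7 at 1.6, 0.231 and 1.59 CPM. Aadat was at 124, 146 and 132 CPM, and Ren1 at 13.1, 13.0 and 20.4 CPM. For these 4 genes all 3 corylin males thus lay on the same side of the young males as the old males did. That did not hold for every gene list: relative to the young mean, corylin male 2 had a mean log2 CPM of -0.005 for complement, 0.04 for tubular injury and repair and 0.08 for MHC class I genes, within the range of the young males, with 0.58 to 0.89 in corylin males 1 and 3.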

How the data were processed

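A stranded mRNA kit was used on whole-kidney RNA, per the labels' protocols. The submitters' processing notes name featureCounts 2.0.1, HISAT2 2.1.0, FastQC 0.11.9 and fastp 0.20.0, and build GRCm38. The sources used here give neither the strand setting of the counting nor the annotation release, so overlapping, antisense and paralogous genes could share reads. The deposited kidney table holds raw counts per gene as whole numbers, which entered every test, TPM values computed by the authors, used only to compare levels between genes, and the authors' own comparison as log2 fold changes with raw and adjusted p-values, of which only counts of calls are given. Of 55471 gene identifiers 55144 matched GENCODE M21, which gave coordinates. 0 columns of sample values were left without a sample.

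Genes with enough counts (filterByExpr, minimum count 10, minimum total 15) were fitted over all 18 kidney libraries in 6 groups with edgeR 4.0.16 in R 4.3.3 (TMM scaling, robust quasi-likelihood F test, Benjamini-Hochberg adjustment over 17174 genes, threshold 0.05). CPM are per 1e+06 counts of the tested genes after TMM, and log2 CPM uses a prior count of 2. Standard errors come from the F statistic. Alternatives were other scalings and filters, DESeq2 1.42.0, limma voom 3.58.1, fewer groups, the library letter, a replicate block and leaving out each library; the fit of male libraries with each library left out was added after seeing the data. The members and the 43 gene lists were chosen with earlier results of these data known. Some genes are on more than 1 list, such as C1qa, C1qb and C1qc (complement and macrophage) and Lcn2 (acute phase and injury). Named genes were every called gene, up to 4 genes of smallest p per list, the 10 next in rank, every gene of the sex difference, and 7 checks, of which 1 is not reported here, and the lowest ranked were dropped first.

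With 3 libraries a group an exact permutation test of 1 gene cannot go below p = 0.1. In simulated data for this comparison 46 of 50 genes raised by 2 log2 units and 38 of 50 raised by 1 were recovered, with 11 false calls, over 17040 genes. The changed genes were drawn only from those with a mean above 50 counts, with 50 at each of -2, -1, 1 and 2 log2 units. That is more than the 19 genes called in the data, which eases the adjustment. The recovery of scarcer genes, such as Mmp7, was not simulated.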

Additional observations from a re-analysis of the deposited data

Results flagged for a closer look

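A test of the difference between the age effects of the sexes, female minus male in log2 units, marked 16 genes, each given here with its SE and edgeR's adjusted p. Dpys, the dihydropyrimidinase, differed by -3.56 ± 0.53 (adjusted p = 0.0217), at 1.72 ± 1.06 CPM in old females and 19.4 ± 2.7 CPM in young females, and at 43.5 ± 2.3 CPM in old males and 40.5 ± 1.6 CPM in young males (SD, n = 3 each). Bhmt, the betaine-homocysteine methyltransferase, differed by -4.38 ± 0.68 (adjusted p = 0.0266), at 5.21 ± 2.78 CPM in old females and 75.9 ± 12.1 CPM in young females, and at 22.2 ± 3.4 CPM in old males and 15.5 ± 1.7 CPM in young males. Its near copy Bhmt1b, which may share its reads, differed by -4.46 ± 0.82 (adjusted p = 0.0472), and Amdhd1, of histidine breakdown, by -2.05 ± 0.35 (adjusted p = 0.0421).

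Acsl1, a long-chain acyl-CoA synthetase, differed by -1.12 ± 0.16 (adjusted p = 0.0217), with log2 fold changes of -0.64 in females and 0.47 in males. Nectin1 differed by -1.10 ± 0.17 (adjusted p = 0.0217), Cnnm1 by -1.28 ± 0.21 (adjusted p = 0.0368), Camk1g by -1.95 ± 0.35 (adjusted p = 0.0472) and Igkv5-39 by -5.95 ± 1.01 (adjusted p = 0.0403), the female effect lying below the male one in each.

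Aadat differed by 1.07 ± 0.16 (adjusted p = 0.0217) in the other direction, with 0.21 in females and -0.86 in males. So did the steroid enzymes Hsd11b1, by 1.82 ± 0.33, and Hsd3b2, by 1.89 ± 0.34, and the tubule gene Keg1, by 2.19 ± 0.40 (adjusted p = 0.0472 for each). Keg1 was at 1929 ± 813 CPM in old females and 728 ± 25 CPM in young females, and at 648 ± 57 CPM in old males and 1119 ± 249 CPM in young males. Eln differed by 1.36 ± 0.24 (adjusted p = 0.0421), Vwa1 by 1.78 ± 0.29 (adjusted p = 0.0368) and Sh3bp2 by 2.0 ± 0.36 (adjusted p = 0.0472), each with a higher log2 fold change in females.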

How the results depend on the processing

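The count of 19 genes for age in males stayed within 1.5 times under other scalings, the stricter filter and the fit without robust estimation (17 to 20), and moved to 64 without a filter on low counts, 233 with DESeq2, 2 with limma voom, 232 with only the groups compared, 10 with the control diet groups only and 2 with the library letter as a term. The count of 16 genes for the sex difference moved to 81 without a filter, 345 with DESeq2, 8 with limma voom and 75 with the letter; with the control diet groups only it was 18, of which 8 were among the 16. Without 1 library at a time the male count ranged from 1 to 30 and that of the sex difference from 0 to 212. The fit of male libraries, added after seeing the data, gave 226, 75 and 56 calls without old males 1, 2 and 3, and 312, 9 and 522 without young males 1, 2 and 3. The cause of these moves was not tested. Replicate numbers were not taken as pairs in the main fit. Deviations of same-numbered males correlated at 0.21, 0.03 and 0.08. Old males 1 and 3 correlated best with the young male of the same number, and old male 2 with young male 3 (0.06). These values do not settle whether the numbers pair the samples. A replicate block gave 44 and 132 calls. Among the named genes the log2 fold change in males changed sign for 3, none of which had passed; with library totals only the median over all genes moved to 0.08 from -0.01 and that of the collagen and matrix list to 0.07 from -0.02. Eln, at -0.06, was 0.02 with library totals as the only scaling and ran from -0.18 to 0.05 without 1 library, Xist, at -0.27, ran from -1.02 to 0.19, and Ddx3y, at 0.11, from -0.20 to 0.37. Of the 19 genes C3 passed in 6 of 6 fits without 1 library and Aadat in 2 of 6, and the others in 0 or 1.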

Other observations

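Old males were more alike than young males over the tested genes: the median SD of log2 CPM was 0.158 in old males and 0.212 in young males, and 38.7% of genes had a larger SD in old than in young males. In females it was 0.323 among old and 0.170 among young. Each value rests on 3 libraries.

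The clock list had a median log2 fold change of -0.03 over 18 genes. Dbp, a clock output factor, was at 5.27, 7.13 and 15.4 CPM in old males, against 27.8, 21 and 38.0 CPM in young males, and its antagonist Nfil3 at 22.9, 20.9 and 15.2 CPM in old males, against 12.9, 9.29 and 8.26 CPM in young males. Neither passed (adjusted p = 0.234 and 0.149, edgeR). In the fit of male libraries Dbp did not pass (adjusted p = 0.104, edgeR) and Nfil3 did (adjusted p = 0.0433, edgeR), as did Npas2 and Arntl, activators of the clock named after their values were seen, with log2 fold changes of 1.05 and 0.74 (adjusted p = 0.0276 and 0.0433, edgeR). The time of day of collection is not given in the sources used here. Cyp27b1, which makes active vitamin D, was at 46.1, 34.7 and 80.9 CPM in old males and 9.78, 15.8 and 41.2 CPM in young males, with overlap.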
